A study of Mus musculus with 9 samples.

Results

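The genes that make, carry and read retinoic acid were followed through control and *Vcam1*-edited mouse intrahepatic cholangiocarcinoma cells. They are 9 of the 55276 gene symbols in the count table, chosen by name for their role: the retinol receptor gene *Stra6*, the retinaldehyde dehydrogenase genes *Aldh1a1*, *Aldh1a2* and *Aldh1a3*, the binding protein genes *Crabp1* and *Crabp2*, and the receptor genes *Rara*, *Rarb* and *Rarg*. Of these, 7 passed the filter on low counts with 17672 genes in all, while *Aldh1a2* and *Crabp1* did not and are given as counts. The cells are PPTR cells, a tumour line grown from liver cancer organoids that were adapted to two-dimensional culture. All groups share the alleles of that line, Prom1CreERT2 and Rosa-ZsGreen among them, so that the *Prom1* promoter drove the recombinase of the original tumour model. RNA was sequenced from 3 libraries of *Vcam1ctrl* cells, which the labels call wild type, 3 of *Vcam1KO1* and 3 of *Vcam1KO2*, each knockout group being 1 clone grown from a single cell after CRISPR/Cas9 cutting in exon 2 of *Vcam1*, and libraries of a condition came from different passages. With 1 clone behind each knockout label, what belongs to the edit and what belongs to the clone cannot be told apart.

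Retinol enters cells through the membrane receptor STRA6 or by diffusion, is oxidized to retinaldehyde by retinol dehydrogenases, and is then oxidized irreversibly to retinoic acid by the ALDH1A enzymes. CRABP proteins carry retinoic acid in the cytoplasm to breakdown enzymes or to the nucleus, where retinoic acid receptors paired with retinoid X receptors bind direct repeats of a short core motif and switch their target genes, *Rarb* among them, between repression and activation. The liver is the main store of vitamin A, held as retinyl esters in hepatic stellate cells, while hepatocytes take up retinoids and secrete retinol bound to RBP4 and transthyretin.

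Libraries held between 53415907 and 125223073 estimated counts, so that 3 counts, taken as the limit of detection, stood for between 0.0239 and 0.0554 CPM (counts divided by library totals that were adjusted with TMM factors). Counting error is large for members with few counts, namely *Aldh1a2*, *Crabp1* and *Crabp2* in all conditions, *Rarb* and *Aldh1a1* in *Vcam1KO2* and *Aldh1a3* in both clones. The targeted gene *Vcam1* kept an RNA level of 0.400 of control in *Vcam1KO1* cells and of 0.377 in *Vcam1KO2* cells. These values are counts over the whole gene and do not measure the protein. By quantitative RT-PCR and flow cytometry, the paper reported that both clones had lost Vcam1 expression. No 2 libraries of a condition were alike within sampling noise (chi-square per degree of freedom between 36.0 and 305), and the third library of each clone differed more from its fellows (median absolute log2 difference between 0.248 and 0.363) than these did from each other (0.150 in *Vcam1KO1* and 0.136 in *Vcam1KO2*). Control libraries lay as far apart, at 0.270 for replicates 1 and 2, 0.212 for 1 and 3, and 0.372 for 2 and 3. Among markers of the labelled cell type, *Krt19*, *Krt7* and *Epcam* of biliary epithelium were present in *Vcam1ctrl* cells, with *Krt19* between 2129 and 2406 CPM, and stood below 1 CPM in every library of both clones, whereas *Sox9* lay at 107 CPM or above in all 9 libraries and *Spp1* had means of 2474 CPM in control, 10576 CPM in *Vcam1KO1* and 9640 CPM in *Vcam1KO2*. With *Spp1*, the 6 biliary markers summed to between 4454 and 5717, between 10544 and 10974 and between 7566 and 11020 CPM. The summed level of the 6 fibroblast markers was between 406 and 800 CPM in control, between 9831 and 12203 CPM in *Vcam1KO1* and between 5859 and 7108 CPM in *Vcam1KO2* libraries. Most of it in the clones came from *Col1a1*, with means of 99.4, 8530 and 4735 CPM, while *Dcn* had means of 74.6, 4.34 and 92.0 CPM. Of the 5 fibroblast markers tested, 3 rose and 1 fell in *Vcam1KO1*, and 4 rose and 0 fell in *Vcam1KO2*. The 7 hepatic stellate cell markers summed to between 30.7 and 49.1, between 579 and 830 and between 354 and 426 CPM, most of it from *Pdgfrb*, while *Lrat*, which defines the retinoid-storing stellate cell, had a single count in 1 *Vcam1KO1* library and 0 in the other 8. Of the 5 stellate markers tested, 2 rose and 2 fell in *Vcam1KO1*, and 2 rose and 1 fell in *Vcam1KO2*. *Hgf* had means of 3.28, 0.491 and 2.03 CPM and *Ngfr* of 1.63, 0.0384 and 0.207 CPM. The 6 hepatocyte markers summed to between 252 and 440 CPM in control and to at most 3.02 and 0.497 CPM in the clones. Most of the control sum came from *Hnf4a* (mean 226 CPM) and *Ttr* (mean 79.3 CPM), while *Alb* had means of 10.2, 2.15 and 0.323 CPM. Of the 5 hepatocyte markers tested, 4 fell in *Vcam1KO1* and 5 in *Vcam1KO2*, and none rose. Haematopoietic markers (5 genes) lay between 3.93 and 8.88 CPM and endothelial markers (5 genes) between 0.794 and 4.46 CPM in all libraries. The biliary, fibroblast, stellate and hepatocyte sums of both clones lay apart from those of control. Haematopoietic sums overlapped between all conditions. Endothelial sums of control (0.794 to 2.07 CPM) overlapped those of *Vcam1KO2* (1.09 to 1.97 CPM) but not those of *Vcam1KO1* (3.02 to 4.46 CPM). The part of these cell type markers in the changes of the retinoid genes was not tested. In bulk RNA, fewer cells of a kind and less RNA per cell cannot be told apart.

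Start sites of 7 of the 9 genes were found in the RefSeq promoter table (GRCm38.p6, from 250 bases before to 50 bases after each start), 15 start sites in all, with *Aldh1a3* and *Crabp2* not among them. Both strands were searched for the retinoic acid receptor core motif AGGTCA, for its variant GGTTCA as well as for a further variant, AGTTCA, and for direct repeats of these with 1, 2 or 5 bases between them. At least 1 of the motifs lay in 5 of the 15 windows, where 35.02% of the 32851 windows of all genes held one. The share for AGGTCA alone was 16.26%, for GGTTCA 10.39% and for AGTTCA 13.99%, and 13.62% held TATAAA. A direct repeat spaced by 5 bases was found in 0.06088% of all windows, one spaced by 2 bases in 0.21% and one spaced by 1 base in 0.1005%. Among the members a single window held a direct repeat, that of *Rarb* on the minus strand at chr14:16575427-16575726, where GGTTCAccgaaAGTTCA ran from base -53 to base -37 relative to the start. That repeat joins the chosen variants GGTTCA and AGTTCA and holds no AGGTCA. Finding it depends on that choice of variants, so it is given as a description and not as a test. The sequences below are shown because they belong to the 3 receptor genes and to *Aldh1a1*, whose levels carry the results, with the searched motifs in capitals, read on either strand. *Rara* had 4 start sites in the table, *Rarg* 2 and *Aldh1a1* 2, of which 1 each is shown, for the receptors the one with the most motifs. The *Rarg* window shown is chr15:102257473-102257772 (minus strand), the *Rara* window chr11:98939461-98939760 (plus strand) and the *Aldh1a1* window chr19:20492333-20492632 (plus strand), each written 5′ to 3′.
Rarb: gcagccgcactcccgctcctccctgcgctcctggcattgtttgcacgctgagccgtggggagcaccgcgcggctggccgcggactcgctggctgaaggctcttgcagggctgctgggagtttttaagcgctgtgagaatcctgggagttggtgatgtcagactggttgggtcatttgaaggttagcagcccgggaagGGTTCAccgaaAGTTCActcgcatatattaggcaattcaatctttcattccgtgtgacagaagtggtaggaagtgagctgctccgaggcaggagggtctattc
Rarg: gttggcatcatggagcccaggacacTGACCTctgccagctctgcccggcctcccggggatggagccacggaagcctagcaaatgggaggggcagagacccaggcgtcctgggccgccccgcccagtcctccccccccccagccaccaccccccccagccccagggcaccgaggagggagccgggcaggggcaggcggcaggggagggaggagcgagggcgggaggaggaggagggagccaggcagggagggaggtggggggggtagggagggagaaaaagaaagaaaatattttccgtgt
Rara: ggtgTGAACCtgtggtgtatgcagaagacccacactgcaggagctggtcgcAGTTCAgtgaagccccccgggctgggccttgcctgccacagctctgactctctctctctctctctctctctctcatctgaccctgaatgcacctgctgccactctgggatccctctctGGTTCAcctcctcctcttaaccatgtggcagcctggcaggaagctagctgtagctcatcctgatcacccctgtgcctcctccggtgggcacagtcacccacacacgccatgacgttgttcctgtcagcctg
Aldh1a1: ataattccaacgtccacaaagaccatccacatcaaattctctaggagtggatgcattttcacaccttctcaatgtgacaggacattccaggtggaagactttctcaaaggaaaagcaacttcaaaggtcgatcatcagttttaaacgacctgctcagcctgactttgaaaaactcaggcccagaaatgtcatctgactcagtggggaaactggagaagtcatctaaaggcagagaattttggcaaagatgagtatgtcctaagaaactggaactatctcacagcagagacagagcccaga
The *Rarg* window held 1 motif, AGGTCA on the opposite strand from base -225 to base -220. In the *Rara* window 3 motifs were found, at -246 on the opposite strand and at -199 and -81, with no direct repeat among them. Of the other 3 *Rara* windows 1 held AGGTCA, at base 34 after the start, and the other 2 held none. The second *Rarg* window and both *Aldh1a1* windows held none, which says only that these letters are not in those windows of 300 bases.

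Across the comparisons the members that moved were not the same in kind. In both clones together against control, 2 of the 7 tested members passed the threshold of an adjusted p of 0.05 in edgeR, *Rarg* upward and *Aldh1a3* downward, where 43% of all tested genes passed (21.7% upward and 21.2% downward). In *Vcam1KO1* cells 5 of 7 passed, *Rarg* and *Crabp2* upward and *Aldh1a1*, *Aldh1a3* and *Stra6* downward, against 59.9% of all genes (29.9% upward and 30% downward). In *Vcam1KO2* cells 6 of 7 passed, *Rarg* and *Stra6* upward and *Aldh1a1*, *Aldh1a3*, *Rara* and *Rarb* downward, against 51.4% of all genes (25.3% upward and 26.1% downward). Between the clones 6 of 7 passed, with *Aldh1a3* the exception, against 38.7% of all genes (20.2% higher and 18.5% lower in *Vcam1KO1*). Libraries of the groups did not overlap for 3, 4, 6 and 6 of the 7 members in these comparisons, where they did not overlap for 44.2%, 66%, 62.1% and 54.9% of all genes. The median log2 fold change of the 7 members was -0.11, -0.12, -0.72 and 1.04, beside 0.07, 0.02, 0.00436 and 0.04 over all genes. With so many genes past the threshold, the number of members that passed is given as a description and the values below carry the results. Each clone was compared with the same 3 control libraries, so the comparisons are not independent of each other.

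**Figure D1:**
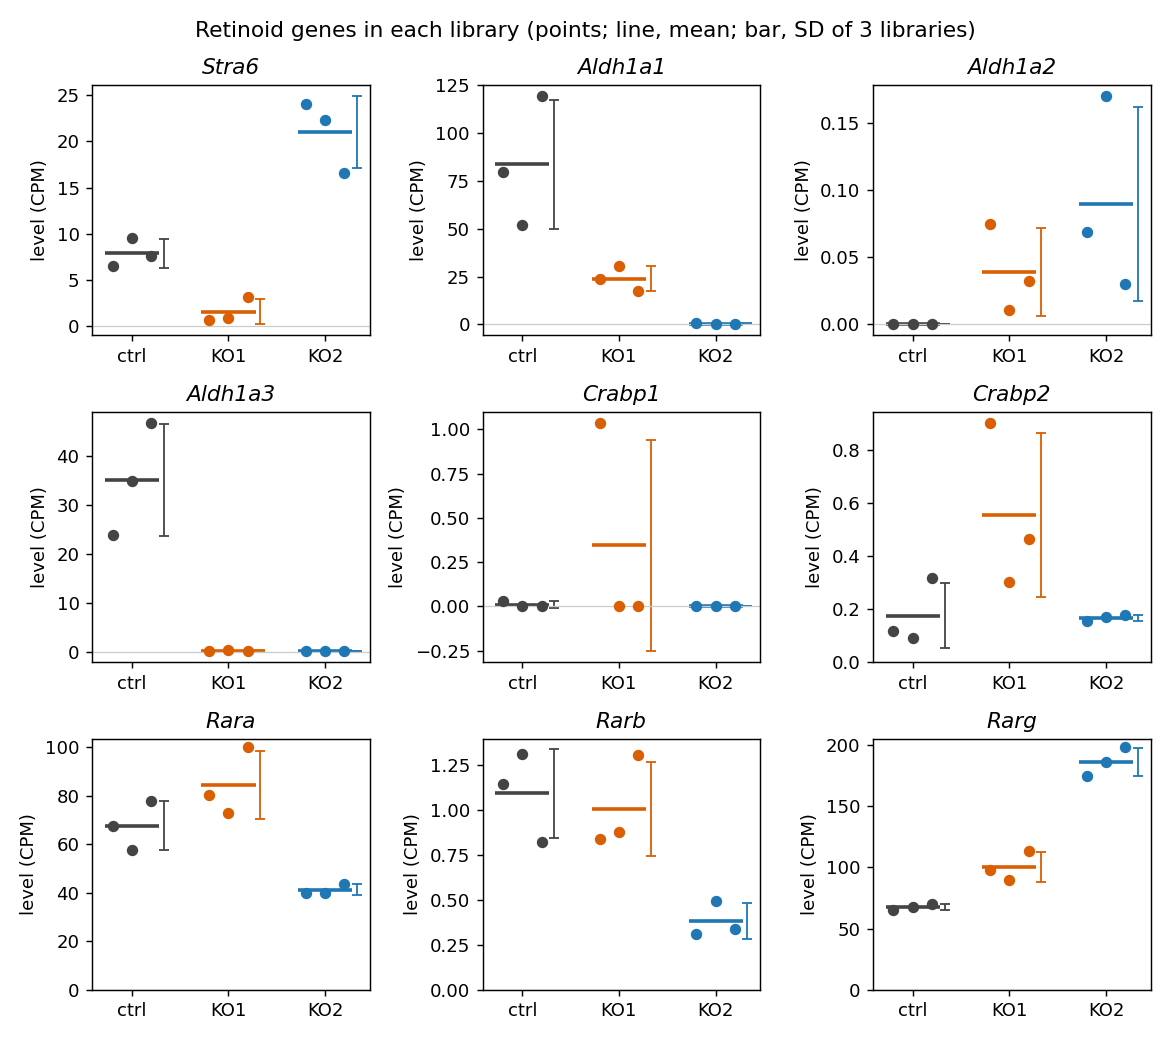
Level of each of the 9 retinoid genes in every library in CPM on linear axes, 3 libraries per condition (ctrl, KO1, KO2), with the mean as a line and the SD as a bar. *Stra6* ran from 1.56 CPM on average in KO1 to 21.0 CPM in KO2, *Aldh1a1* fell from 83.6 to 24.0 and 0.398 CPM, and *Rarg* was highest in all 3 KO2 libraries.

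The retinol receptor gene *Stra6* (chr9:58063788-58153996 in GRCm38, GENCODE vM21, plus strand) moved in opposite directions in the clones. It stood at 6.46, 9.52 and 7.64 CPM in the *Vcam1ctrl* libraries, at 0.704, 0.876 and 3.10 CPM in the *Vcam1KO1* libraries and at 24.1, 22.3 and 16.6 CPM in the *Vcam1KO2* libraries. Every *Vcam1KO1* library lay below, and every *Vcam1KO2* library above, all control libraries. The mean of 1.56 ± 1.33 CPM (SD, n = 3) in *Vcam1KO1* was 5.05-fold lower than the control mean of 7.87 ± 1.54 CPM (SD, n = 3). On the log2 scale that was a change of -2.35 with a standard error of 0.50, and the adjusted p was 0.0027 (Benjamini-Hochberg, quasi-likelihood test of edgeR, as for all values below). In *Vcam1KO2* cells the mean of 21.0 ± 3.91 CPM (SD, n = 3) was 2.66 times that of control, a log2 fold change of 1.42 (standard error 0.47, edgeR adjusted p = 0.031). This increase was no longer past the threshold without control replicate 1 (1.29, edgeR adjusted p = 0.101), control replicate 3 (1.39, 0.0784), *Vcam1KO2* replicate 1 (1.30, 0.0809) or *Vcam1KO2* replicate 2 (1.37, 0.0743). The clones differed from each other by -3.76 on the log2 scale (standard error 0.52, edgeR adjusted p = 6.5e-04), a 13.5-fold lower level in *Vcam1KO1* cells, and this difference was larger than that of 96.2% of all tested genes. Pooling both clones gave 0.52 against control (edgeR adjusted p = 0.72), a value between opposite changes, and its sign turned with limma-voom (-0.66) and with the average of the clones' contrasts (-0.47).

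*Aldh1a1* (chr19:20492715-20643465, plus strand), per length the most abundant of the retinaldehyde dehydrogenase genes in control cells, fell in both clones and far more in the second. The *Vcam1ctrl* libraries held 79.6, 52.0 and 119 CPM, the *Vcam1KO1* libraries 23.8, 30.6 and 17.5 CPM and the *Vcam1KO2* libraries 0.531, 0.368 and 0.296 CPM. No library of one condition reached into the range of another. The mean was 83.6 ± 33.8 CPM (SD, n = 3) in control cells, 24.0 ± 6.59 CPM in *Vcam1KO1* and 0.398 ± 0.121 CPM in *Vcam1KO2* (SD, n = 3 each), which rests on 20 to 31 counts per library. The change was -1.80 on the log2 scale in *Vcam1KO1* (standard error 0.31, edgeR adjusted p = 8.6e-04), a 3.49-fold lower level. It was -7.72 in *Vcam1KO2* (standard error 0.43, edgeR adjusted p = 9.4e-07), a 210-fold lower level and a change larger than that of 97.6% of all tested genes. The effects of the clones differed by 5.92 on the log2 scale (standard error 0.40, edgeR adjusted p = 1.2e-05), and the *Vcam1KO1* mean was 60.2 times that of *Vcam1KO2*. With both clones pooled, where their difference counts as spread, the change was -2.78 (standard error 1.30, edgeR adjusted p = 0.11) although all 6 knockout libraries lay below all 3 control libraries, and the same comparison passed with limma-voom (-4.62, adjusted p = 0.013) and as the average of the clones' contrasts (-4.76, edgeR adjusted p = 7.0e-07).

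Counts of *Aldh1a1* can share reads with *Aldh1a7*, a close paralog encoded next to it at chr19:20692953-20727562 on the minus strand, since 279 of the 2328 stretches of 31 bases in the *Aldh1a1* transcript (12.0%) occur in *Aldh1a7* too. *Aldh1a7* itself did not follow *Aldh1a1*. It stood at 3.13, 1.61 and 5.99 CPM in control, at 14.0, 18.8 and 12.0 CPM in *Vcam1KO1* and at 0.240, 0.156 and 0.0296 CPM in *Vcam1KO2* libraries, a rise of 2.06 in the first clone (edgeR adjusted p = 0.0067) and a fall of -4.67 in the second (edgeR adjusted p = 2.0e-04). The ratio of *Aldh1a1* to *Aldh1a7* counts thus went from 25.9 ± 6.26 (SD, n = 3) in control to 1.60 ± 0.126 in *Vcam1KO1* and 4.86 ± 4.45 in *Vcam1KO2* (SD, n = 3 each). With the counts of both genes summed, which no split between them can change, the decrease was -1.16 in *Vcam1KO1* (edgeR adjusted p = 0.013) and -7.34 in *Vcam1KO2* (edgeR adjusted p = 1.7e-06).

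*Aldh1a3* (chr7:66390890-66427517, minus strand), which encodes the second retinaldehyde dehydrogenase expressed in control cells, fell to nearly the same low level in both clones. It stood at 23.8, 34.9 and 46.6 CPM in the *Vcam1ctrl* libraries, at 0.314, 0.417 and 0.287 CPM in the *Vcam1KO1* libraries and at 0.308, 0.283 and 0.355 CPM in the *Vcam1KO2* libraries. All 6 knockout libraries, with between 18 and 40 counts, lay far below the 3 control libraries, and the ranges of the clones overlapped. Means of 0.340 ± 0.0686 and 0.315 ± 0.0366 CPM stood against 35.1 ± 11.4 CPM in control (SD, n = 3 each), which is 103-fold and 111-fold lower. The log2 fold change was -6.67 in *Vcam1KO1* (standard error 0.31, edgeR adjusted p = 2.9e-07), -6.79 in *Vcam1KO2* (standard error 0.32, edgeR adjusted p = 3.9e-07) and -6.73 with both pooled (standard error 0.24, edgeR adjusted p = 2.5e-07). The pooled change was larger than that of 96.9% of all tested genes and kept its call in each fit that left out 1 library. Between the clones the difference was 0.12 (standard error 0.31, edgeR adjusted p = 0.77), whose sign turned without *Vcam1KO1* replicate 2 (-0.069, edgeR adjusted p = 0.90).

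*Aldh1a2* (chr9:71215789-71296243, plus strand), the enzyme gene of the early embryo and of mesenchymal tissue, was at the limit of detection. Its counts were 0, 0 and 0 in *Vcam1ctrl*, 5, 1 and 2 in *Vcam1KO1* and 4, 12 and 2 in *Vcam1KO2* libraries. A level above 3 counts was seen in 3 of 6 knockout libraries and in none of the control libraries, and the *Vcam1KO2* mean was at least 2.28-fold higher than control taken at 3 counts per library. In a fit without the filter on low counts it passed the threshold in *Vcam1KO1* (edgeR adjusted p = 0.042) and in *Vcam1KO2* (edgeR adjusted p = 0.0075) but not between the clones (edgeR adjusted p = 0.43). Of the 34314 genes in that fit 32.2%, 26.4% and 18.9% passed in these comparisons. In *Vcam1KO1* only replicate 1 held more than 3 counts, so that call rests on counts at the limit of detection.

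Per kilobase of the longest coding transcript, on which levels of different genes can be compared, the 3 *Aldh1a* genes summed to 45.6 ± 16.5 CPM per kb in *Vcam1ctrl*, 10.3 ± 2.81 in *Vcam1KO1* and 0.300 ± 0.0530 in *Vcam1KO2* cells (SD, n = 3 each). *Aldh1a1* made up 76.8% ± 7.46 of that sum in control, 98.8% ± 0.178 in *Vcam1KO1* and 55.7% ± 8.38 in *Vcam1KO2* (SD, n = 3 each). What little the second clone retained was thus divided between *Aldh1a1*, *Aldh1a3* (31.6% ± 9.57) and *Aldh1a2* (12.7% ± 9.88, SD, n = 3 each). The *Aldh1a2* share ran from 5.41% to 23.9% and rests on 4, 12 and 2 counts. The shares depend on the length taken for each gene, and with the median length of the coding transcripts *Aldh1a1* held 59.1%, 97.6% and 39.9%. In raw counts, where gene length cancels between conditions, *Aldh1a1* stood to *Aldh1a3* as 2.46 ± 0.928 in control, 69.9 ± 8.01 in *Vcam1KO1* and 1.29 ± 0.445 in *Vcam1KO2* (SD, n = 3 each).

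**Figure D2:**
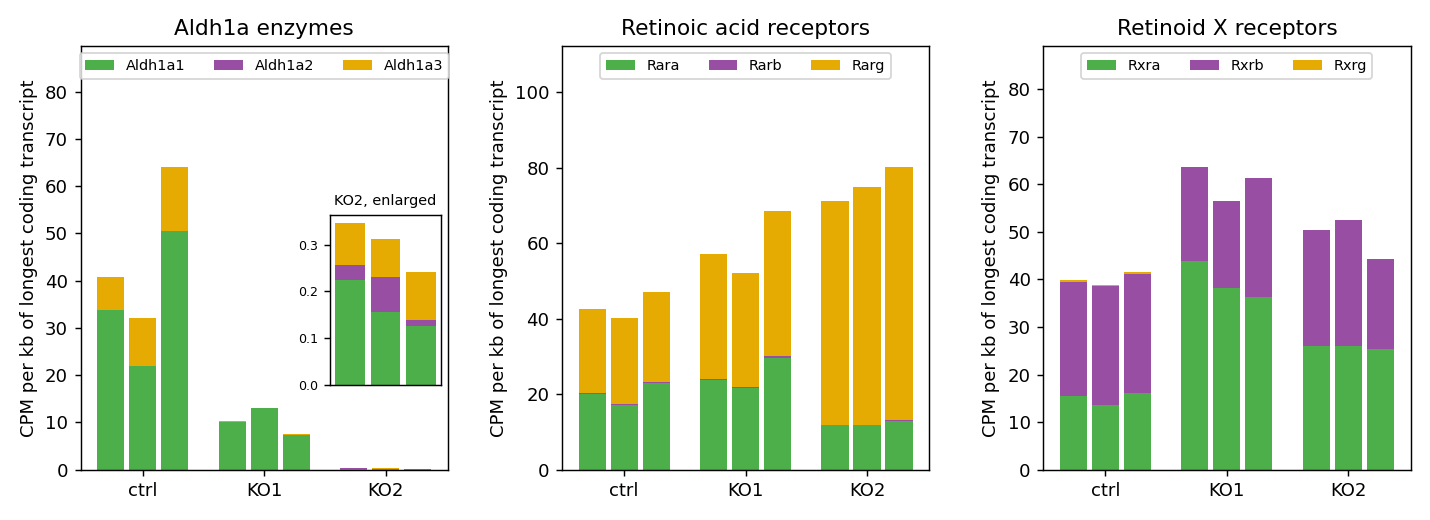
Stacked bars, 1 per library and 3 per condition, of the level in CPM per kb of the longest coding transcript for the Aldh1a enzymes, the retinoic acid receptors and the retinoid X receptors, with the *Vcam1KO2* libraries of the first panel enlarged in an inset. The Aldh1a sum falls from a mean of 45.6 in ctrl to 10.3 in KO1 and 0.300 in KO2, while the sum of the retinoic acid receptors is 43.2, 59.3 and 75.4 and *Rarg* takes most of it in KO2.

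Neither binding protein gene reached 1 CPM on average in any condition. *Crabp2* (chr3:87948666-87953376, plus strand), whose product delivers retinoic acid to the receptors, stood at 0.120, 0.0923 and 0.316 CPM in *Vcam1ctrl*, at 0.898, 0.303 and 0.463 CPM in *Vcam1KO1* and at 0.154, 0.170 and 0.177 CPM in *Vcam1KO2* libraries, from between 5 and 60 counts per library. Libraries of *Vcam1KO1* overlapped those of control but lay above those of *Vcam1KO2*. The mean of 0.555 ± 0.308 CPM in *Vcam1KO1* was 3.15 times the control mean of 0.176 ± 0.122 CPM (SD, n = 3 each), a log2 fold change of 1.63 (standard error 0.54, edgeR adjusted p = 0.026). That call was lost without control replicate 1 (1.37, edgeR adjusted p = 0.0980), control replicate 2 (1.30, 0.0912) or *Vcam1KO1* replicate 1 (1.04, 0.139), and in a fit on the 6 libraries alone (1.60, edgeR adjusted p = 0.0572). In *Vcam1KO2* cells the mean was 0.167 ± 0.0118 CPM (SD, n = 3) and the change -0.08 (edgeR adjusted p = 0.92), which turned sign with limma-voom (0.13) and without control replicate 3 (0.62). The clones differed by 1.71 (standard error 0.55, edgeR adjusted p = 0.035), a call that was lost without *Vcam1KO1* replicate 1 (1.13, edgeR adjusted p = 0.151) and without *Vcam1KO2* replicate 1 (1.62, 0.108), 2 (1.71, 0.0992) or 3 (1.72, 0.0923).

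*Crabp1* (chr9:54764748-54773110, plus strand), the partner gene linked mainly to retinoic acid breakdown, was found in 2 of the 9 libraries. Control replicate 1 held 4 counts and *Vcam1KO1* replicate 1 held 69 counts, or 1.03 CPM, while the other 7 libraries held 0. The same *Vcam1KO1* library was the highest for *Crabp2*. An unfiltered fit gave an adjusted p of 0.044 for *Crabp1* in *Vcam1KO1* against control and of 0.032 between the clones (edgeR), values that rest on that 1 library, since the other 2 of its group had no count.

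The receptor genes did not move as one family. *Rarg* (chr15:102234938-102257517, minus strand), the receptor best known from skin and mesenchyme, rose in both clones. Its level was 65.3, 67.3 and 69.9 CPM in *Vcam1ctrl*, 97.7, 89.5 and 114 CPM in *Vcam1KO1* and 175, 186 and 198 CPM in *Vcam1KO2* libraries. The 3 ranges did not touch, and control had the tightest of them, with a mean of 67.5 ± 2.32 CPM (SD, n = 3). The *Vcam1KO1* mean of 100.3 ± 12.3 CPM was 1.49 times that of control, a log2 fold change of 0.57 (standard error 0.11, edgeR adjusted p = 0.0017). The *Vcam1KO2* mean of 186 ± 11.7 CPM was 2.76 times that of control, a log2 fold change of 1.47 (standard error 0.11, edgeR adjusted p = 6.6e-06). The rise was smaller in *Vcam1KO1* by -0.89 on the log2 scale (standard error 0.11, edgeR adjusted p = 3.6e-04). Pooled, the clones stood 2.12 times above control (log2 fold change 1.09, standard error 0.29, edgeR adjusted p = 0.013), and this call was lost without control replicate 1 (1.06, edgeR adjusted p = 0.0549) or control replicate 2 (1.04, 0.0624), although the knockout libraries lay above the control libraries throughout.

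*Rara* (chr11:98927818-98974942, plus strand), the broadly expressed receptor, fell in *Vcam1KO2* cells, and its change in *Vcam1KO1* cells did not pass the threshold. It stood at 67.5, 57.7 and 78.0 CPM in *Vcam1ctrl*, at 80.2, 72.9 and 100.3 CPM in *Vcam1KO1* and at 39.8, 39.8 and 43.8 CPM in *Vcam1KO2* libraries. All *Vcam1KO2* libraries lay below those of both other conditions, whose ranges overlapped. The *Vcam1KO2* mean of 41.1 ± 2.28 CPM was 1.65-fold lower than the control mean of 67.7 ± 10.2 CPM (SD, n = 3 each), a log2 fold change of -0.72 (standard error 0.15, edgeR adjusted p = 0.0028). In *Vcam1KO1* the mean was 84.5 ± 14.2 CPM (SD, n = 3) and the change 0.32 (standard error 0.15, edgeR adjusted p = 0.089), which passed the threshold without control replicate 3 (0.42, edgeR adjusted p = 0.0439). The clones differed by 1.04 (standard error 0.15, edgeR adjusted p = 7.5e-04), and pooling them left -0.11 (edgeR adjusted p = 0.80). Of the 3354 stretches of 31 bases in the *Rara* transcript 35 (1.04%) occur in other genes, and the transcripts of the other receptors shared none.

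*Rarb* (chr14:16430839-16819156, minus strand), the receptor gene that is itself a classical retinoic acid target and whose promoter carried the direct repeat shown above, was low everywhere. It stood at 1.15, 1.31 and 0.822 CPM in *Vcam1ctrl*, at 0.838, 0.876 and 1.31 CPM in *Vcam1KO1* and at 0.308, 0.495 and 0.340 CPM in *Vcam1KO2* libraries, the last from 18, 35 and 23 counts. Control and *Vcam1KO1* overlapped, and *Vcam1KO2* lay below both. The *Vcam1KO2* mean of 0.381 ± 0.0998 CPM was 2.87-fold lower than the control mean of 1.09 ± 0.249 CPM (SD, n = 3 each), a log2 fold change of -1.51 (standard error 0.33, edgeR adjusted p = 0.0041). The *Vcam1KO1* mean was 1.01 ± 0.261 CPM (SD, n = 3), with a change of -0.12 (standard error 0.32, edgeR adjusted p = 0.77). Between the clones the difference was 1.39 (standard error 0.33, edgeR adjusted p = 0.0097). Pooled, it was -0.65 (edgeR adjusted p = 0.29), and -0.81 as the average of the clones' contrasts (edgeR adjusted p = 0.027). Exons of *Top2b* and *Gm48162* overlap those of *Rarb* on the opposite strand, from which the stranded counting set it apart.

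Per kilobase, the 3 receptor genes summed to 43.2 ± 3.43 CPM per kb in *Vcam1ctrl*, 59.3 ± 8.43 in *Vcam1KO1* and 75.4 ± 4.56 in *Vcam1KO2* cells (SD, n = 3 each). *Rarg* took 53.0% ± 3.22 of the sum in control, 57.4% ± 1.09 in *Vcam1KO1* and 83.7% ± 0.395 in *Vcam1KO2*, *Rara* took 46.1%, 42.0% and 16.1%, and *Rarb* stayed below 1% in each. The counts of *Rarg* and *Rara* showed the same without any length, at a ratio of 1.01 ± 0.140 in control, 1.19 ± 0.0513 in *Vcam1KO1* and 4.53 ± 0.143 in *Vcam1KO2* (SD, n = 3 each). With median transcript lengths *Rarg* held 76.5%, 79.6% and 93.7%. Thus *Rarg* and *Rara* were of like level in control under the first length but not under the second, while the rise of the *Rarg* share in *Vcam1KO2* was present under both.

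**Figure D3:**
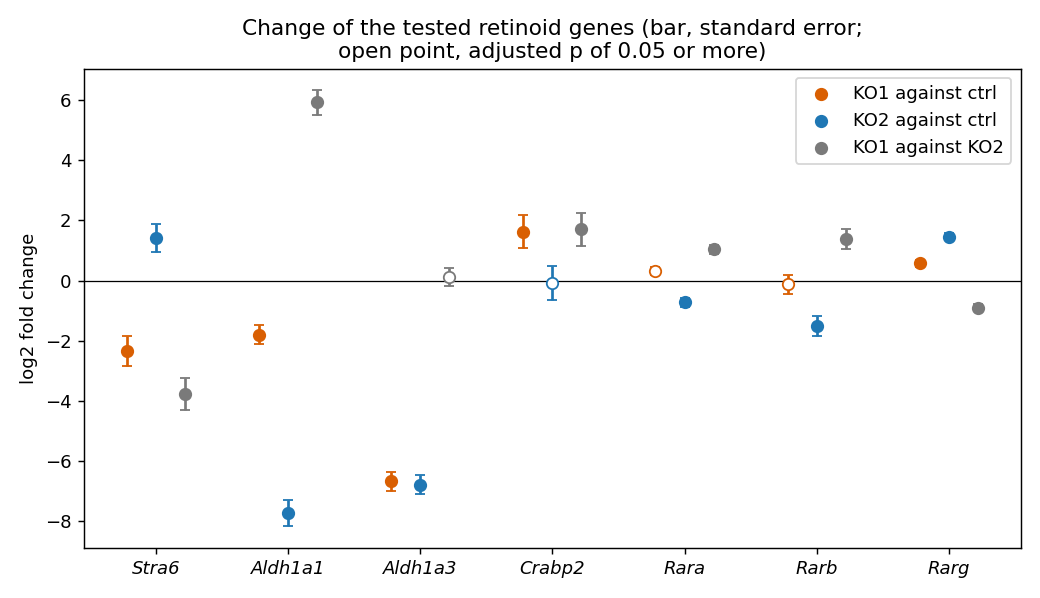
Log2 fold change of the 7 tested members in KO1 against ctrl, KO2 against ctrl and KO1 against KO2, with the standard error as a bar and open points for an adjusted p of 0.05 or more in edgeR. *Aldh1a3* lies at -6.67 and -6.79 in the clones, *Stra6* on opposite sides of 0 at -2.35 and 1.42, and *Rarg* above 0 in both at 0.57 and 1.47.

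The order of the 3 conditions differed between members. *Aldh1a1* ran from control over *Vcam1KO1* down to *Vcam1KO2* with all neighbours apart beyond their spread, and *Rarg* ran the opposite way with all neighbours apart. *Stra6* ran from *Vcam1KO2* over control to *Vcam1KO1*. *Rara* was highest in *Vcam1KO1*, followed by control, where the step between these did not pass the test, and then *Vcam1KO2*. For *Rarb* the step from control to *Vcam1KO1* did not pass the test and *Vcam1KO2* was lowest. For *Aldh1a3* control was highest and the step between the clones did not pass the test. Of the 11586 genes compared over the 9 libraries, the log2 CPM profile closest to *Aldh1a1* was that of *Cyp4a12b* (Euclidean distance 0.862), followed by *Gm4735* (1.27). Closest to *Aldh1a3* were *Map7* (0.989) and *Slc38a1* (1.18), to *Rara* *Stk38l* (0.268) and *Prkca* (0.288), to *Rarg* *Bpgm* (0.442) and *Stxbp5* (0.453), and to *Stra6* *Bmp2* (1.65) and *Ctsc* (1.66). *Bmp2*, a bone morphogenetic protein gene, had means of 10.6 CPM in control, 1.06 CPM in *Vcam1KO1* and 30.9 CPM in *Vcam1KO2*. Among the 5 members with a mean of at least 5 CPM in a condition, the closest pair was *Rara* and *Rarg* at 2.93. This distance depends on the size of the changes, so a small one need not mean a like direction. In *Vcam1KO2* against control *Rara* changed by -0.72 and *Rarg* by 1.47 on the log2 scale.

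Around the members, 42 further genes of the pathway were read in 4 lists, of which 37 were tested. In both clones together against control 9 of them rose and 7 fell, so that 16 of 37 passed where 43% of all genes did, with a median log2 fold change of -0.04 beside 0.07 over all genes. In *Vcam1KO1* 13 rose and 15 fell, 28 of 37 where 59.9% of all genes passed (median 0.05 beside 0.02). In *Vcam1KO2* 9 rose and 8 fell, 17 of 37 where 51.4% of all genes passed (median -0.09 beside 0.00436). Between the clones 8 were higher and 9 lower in *Vcam1KO1*, 17 of 37 where 38.7% of all genes passed (median 0.11 beside 0.04). These shares of all genes are the background of the single lists too. These medians were the same with genes at the limit of detection set to their bound. The members' own counts in these comparisons were 2, 5, 6 and 6 both with and without *Vcam1KO1* replicate 3, the clone library farthest from its fellows. Without it 44.7%, 56.7%, 55.5% and 32.7% of all genes passed.

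Among 8 tested genes of retinol uptake, transport and storage, 4 fell and 1 rose in the pooled comparison. *Rbp4*, the plasma carrier of retinol, stood between 318 and 523 CPM in control, between 0.0835 and 0.120 CPM in *Vcam1KO1* and between 0.459 and 1.61 CPM in *Vcam1KO2* libraries, a change of -9.30 (edgeR adjusted p = 9.0e-05). *Ttr*, the transthyretin gene that is also on the hepatocyte list, ranged from 35.4 to 138 CPM in control, had at most 6 counts in *Vcam1KO1* and 0 in *Vcam1KO2*, where it was at least 1721-fold lower. *Bco1*, whose enzyme cleaves carotene into retinaldehyde, fell from a mean of 13.1 ± 1.84 CPM (SD, n = 3) to at most 7 counts in any clone library (-7.93, edgeR adjusted p = 2.7e-05). The fall of *Rbp4* went with that of the hepatocyte markers, of which *Ttr* is itself a member, and their part was not tested.

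Of 15 tested genes that interconvert retinol and retinaldehyde, 2 rose and 2 fell in the pooled comparison, 6 rose and 4 fell in *Vcam1KO1*, and 2 rose and 2 fell in *Vcam1KO2*. *Rdh10*, the main retinol dehydrogenase of development and the step before the ALDH1A enzymes, stood at 77.4, 81.3 and 93.4 CPM in control, at 160, 196 and 221 CPM in *Vcam1KO1* and at 113, 112 and 77.9 CPM in *Vcam1KO2*. It rose by 1.20 in *Vcam1KO1* (edgeR adjusted p = 2.9e-04), where no library overlapped control, and its change was 0.26 in *Vcam1KO2* (edgeR adjusted p = 0.23) and 0.80 pooled (edgeR adjusted p = 0.065). *Dhrs3*, which turns retinaldehyde back to retinol, stood at 6.13, 5.04 and 12.4 CPM in control, at 25.1, 30.3 and 55.2 CPM in *Vcam1KO1* and at 11.7, 13.2 and 2.94 CPM in *Vcam1KO2*. It rose by 2.23 in *Vcam1KO1* (edgeR adjusted p = 0.0074), while the values were 0.24 in *Vcam1KO2* (edgeR adjusted p = 0.75) and 1.55 pooled (edgeR adjusted p = 0.13). In the pooled comparison *Dhrs4* rose by 1.19 (edgeR adjusted p = 2.0e-04) and *Rdh14* by 0.71 (edgeR adjusted p = 0.012), whereas *Rdh11* changed by -1.02 (edgeR adjusted p = 0.0028) and *Rdh5* by -0.38 (edgeR adjusted p = 0.041).

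The breakdown enzymes are induced by retinoic acid in many cells and clear it. *Cyp26b1*, the one expressed here, stood at 26.3, 25.4 and 23.5 CPM in control, at 4.34, 6.43 and 8.30 CPM in *Vcam1KO1* and at 22.1, 22.2 and 21.9 CPM in *Vcam1KO2*. It was 3.94-fold lower in *Vcam1KO1* (-1.98, edgeR adjusted p = 3.9e-05), and its change in *Vcam1KO2* was -0.19 (edgeR adjusted p = 0.47). *Cyp26a1* had at most 2 counts in control libraries, between 6 and 9 in *Vcam1KO1* and between 10 and 22 in *Vcam1KO2*, and was at least 4.20-fold higher in the clones together than in control taken at 3 counts per library (edgeR adjusted p = 0.0031). *Cyp26c1*, at most 1 count in control, was at least 4.43-fold higher (edgeR adjusted p = 0.0022). Thus 2 of the 3 rose from a level near 0 to below 1 CPM.

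Of 11 receptor partners, alternative carrier and cofactor genes, 4 rose and 1 fell in the pooled comparison, 4 rose and 4 fell in *Vcam1KO1* and 3 rose and 1 fell in *Vcam1KO2*. *Rxra*, like *Rxrb* and *Rxrg*, encodes a partner of the retinoic acid receptors. Levels of *Rxra* were 75.5, 66.6 and 79.1 CPM in control, 215, 188 and 178 CPM in *Vcam1KO1* and 128, 127 and 124 CPM in *Vcam1KO2*. For *Rxra* all 6 knockout libraries lay above control. Its change was 1.39 in *Vcam1KO1* (edgeR adjusted p = 5.8e-06), 0.78 in *Vcam1KO2* (edgeR adjusted p = 2.7e-04) and 1.12 pooled (edgeR adjusted p = 0.0024). *Rxrb* had means of 64.8, 55.1 and 61.1 CPM and a pooled change of -0.16 (edgeR adjusted p = 0.39). *Rxrg* fell from between 47 and 130 counts in control to between 9 and 13 in *Vcam1KO1* and at most 2 in *Vcam1KO2*, where it was at least 19.2-fold lower (pooled change -3.43, edgeR adjusted p = 0.0059). Per kilobase *Rxra* took 37.4% of the retinoid X receptor sum in control, 65.2% in *Vcam1KO1* and 52.8% in *Vcam1KO2*, or 58.7%, 81.6% and 72.7% with median lengths. The coactivator genes *Ncoa1* (1.24, edgeR adjusted p = 0.018) and *Ncoa2* (0.62, 0.011) rose in the pooled comparison. *Ncoa3* on the same list went the other way, with means of 90.2 CPM in control, 31.3 CPM in *Vcam1KO1* and 71.8 CPM in *Vcam1KO2*. Its highest knockout library (75.6 CPM) lay below its lowest control library (77.2 CPM).

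A list of 11 direct retinoic acid targets, 6 of them shared with the lists above, had 8 tested genes, of which 2 rose and none fell in the pooled comparison, 4 rose and 3 fell in *Vcam1KO1*, and 2 rose and none fell in *Vcam1KO2*. The 2 that rose in the pooled comparison were *Cyp26a1* and *Tgm2*, the tissue transglutaminase gene. *Tgm2* stood at 218, 199 and 322 CPM in control, at 925, 833 and 1233 CPM in *Vcam1KO1* and at 964, 1047 and 658 CPM in *Vcam1KO2*, with no overlap between clones and control. The pooled change of *Tgm2* was 1.94 (standard error 0.24, edgeR adjusted p = 2.2e-04). Targets given above moved the other way, *Rarb* in *Vcam1KO2* and *Cyp26b1* in *Vcam1KO1*, and *Cyp26b1* differed between the clones by -1.79 (edgeR adjusted p = 2.5e-04).

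**Figure D4:**
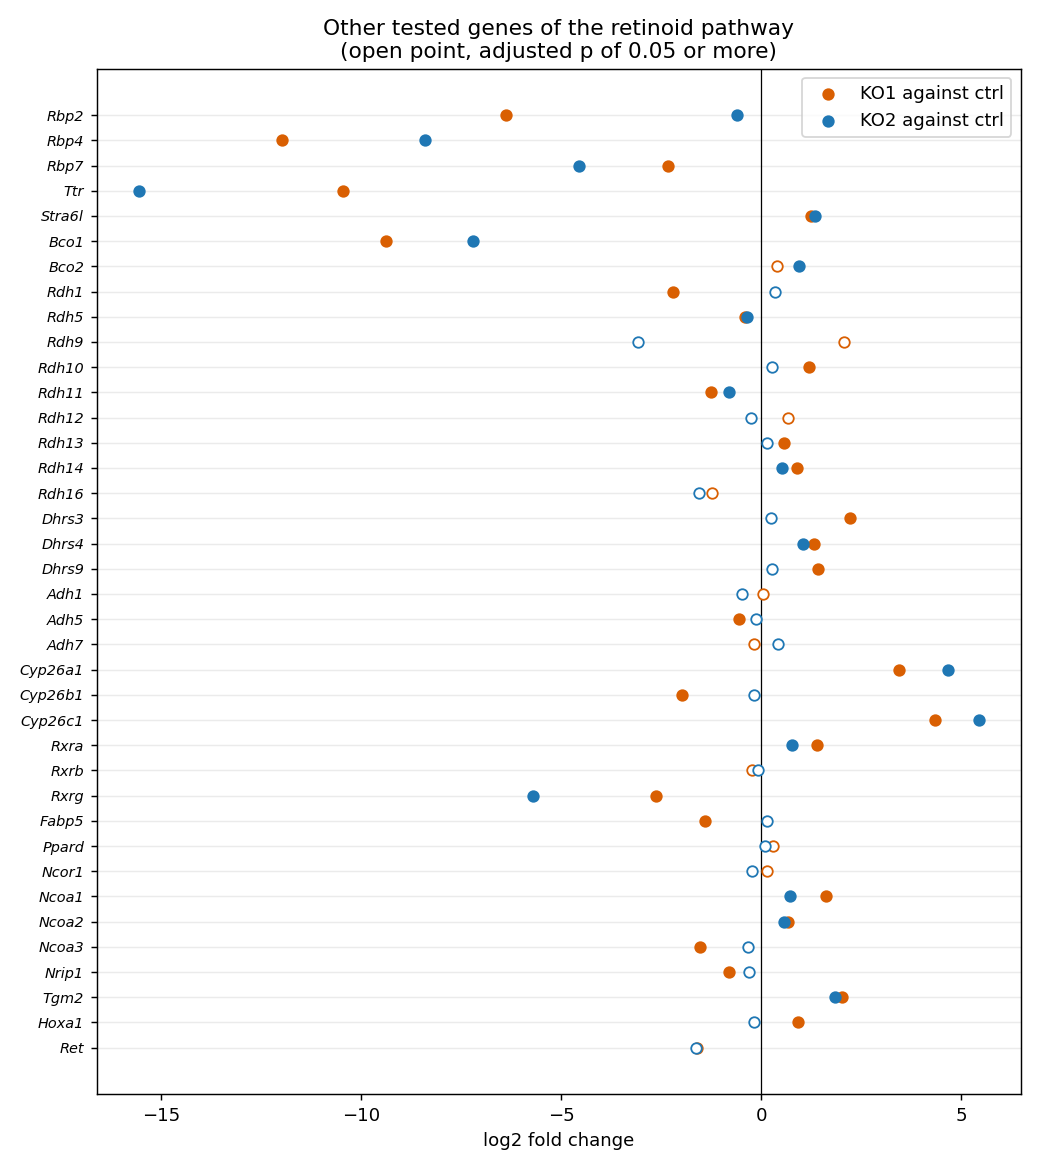
Log2 fold change of 38 tested pathway and target genes in KO1 and in KO2 against ctrl, with filled points for an adjusted p below 0.05 in edgeR and open points otherwise. *Rbp4*, *Ttr* and *Bco1* lie far to the left in both clones, *Cyp26b1* only in KO1 by the test, and *Rxra* and *Tgm2* to the right in both.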

How the data were processed

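RNA of *Vcam1ctrl* PPTR cells and of the clones *Vcam1KO1* and *Vcam1KO2* was made into stranded mRNA libraries by the authors and sequenced as read pairs, 3 libraries per condition. The authors pseudoaligned reads with kallisto 0.46.1 to mouse transcripts (mm10), and the deposited table holds estimated counts per gene symbol without normalization. The step that summed transcripts to genes is not given in the sources used here. All values were whole and 0 columns were left out. Groups follow the labels, and totals ranged from 53415907 to 125223073.

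Counts were normalized with TMM, filtered with filterByExpr and tested with edgeR 4.0.16 (R 4.3.3), with Benjamini-Hochberg adjustment over 17672 genes and a threshold of 0.05. Pooled clones were compared with control in a fit with 2 groups, single clones in a fit with 3 groups. Alternatives included limma-voom 3.58.1, the study's own test, and DESeq2 1.42.0. The script was tested on simulated data. Log2 CPM used a prior count of 2. Members, pathway lists and markers were chosen with earlier results of these data known. Named pathway genes were those past the threshold in the pooled comparison with a mean of at least 1 CPM in a condition, plus receptor partners and others set by name (some are not reported here), while for each member of at least 5 CPM the 2 closest profiles were named. *Cyp26c1* and *Ncoa3* fall outside that rule and were named after their values were seen. Positions come from GRCm38 with GENCODE vM21, another release than the counts. P values of the fit with 3 groups measure the spread between passages of a culture or clone. In the pooled fit the difference between the clones counts as spread too.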

Additional observations from a re-analysis of the deposited data

Results flagged for a closer look

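The change from control differed between the clones, by edgeR's test of the difference between them, for 6 of the 7 tested members. The log2 difference of the *Vcam1KO1* effect minus the *Vcam1KO2* effect was 5.92 for *Aldh1a1*, 1.71 for *Crabp2*, 1.04 for *Rara*, 1.39 for *Rarb*, -0.89 for *Rarg* and -3.76 for *Stra6*. *Aldh1a1* fell and *Rarg* rose in both clones to unequal extents, while *Stra6* fell in one and rose in the other. Since both effects were taken against the same control libraries, each difference is that between the clones themselves, and 38.7% of all tested genes passed the same test. The *Crabp2* difference rested on between 9 and 60 counts per library. What sets the clones apart was not tested.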

How the results depend on the processing

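Of 28 member results (7 members in 4 comparisons), 18 kept their direction and their side of the threshold under all alternatives, and 10 changed in at least 1. Among 468 recomputed values 5 reversed, 15 lost and 4 gained their call. In the pooled comparison 1 member passed without control replicate 1 (30.6% of all genes) or 2 (32.6%), and 4 passed as the average of the clones' contrasts, where 27 pathway genes passed instead of 16 and the share of all genes rose from 43% to 59.2%. Leaving out each library in turn gave 1 to 2 members and 11 to 19 pathway genes in the pooled comparison, 4 to 6 members in *Vcam1KO1*, 5 to 6 in *Vcam1KO2* and 5 to 6 between the clones. In these fits the share of all genes moved too, from 30.6% to 44.7% pooled and from 52.2% to 58.7% in *Vcam1KO1*. It ran from 42.4% to 55.5% in *Vcam1KO2* and from 26.9% to 40.2% between the clones. Changes that reversed were *Stra6* pooled with limma-voom (-0.66) and as the average of contrasts (-0.47), *Crabp2* in *Vcam1KO2* with limma-voom (0.13) and without control replicate 3 (-0.37 to 0.62 over all left-out libraries), and *Aldh1a3* between the clones without *Vcam1KO1* replicate 2 (-0.069 to 0.23). With limma-voom *Crabp2* between the clones lost its call (adjusted p = 0.0533). The cause was not tested, except that the average of contrasts leaves the difference between clones out of the spread. Median in place of longest transcript lengths, chosen after seeing the data, as was summing *Aldh1a1* and *Aldh1a7*, gave shares in control, *Vcam1KO1* and *Vcam1KO2* of 59.1%, 97.6% and 39.9% for *Aldh1a1*, 76.5%, 79.6% and 93.7% for *Rarg*, and 58.7%, 81.6% and 72.7% for *Rxra*. No paired analysis was possible because the labels number the libraries consecutively and give no passage that would pair libraries across conditions. Depth limits *Aldh1a2*, *Crabp1* and *Crabp2*, *Aldh1a1* in *Vcam1KO2* and *Aldh1a3* in both clones.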
